A study of Mus musculus with 35 samples.

Results

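The libraries described here are those of bone marrow-derived macrophages (BMDMs) that received DAMPs together with dexamethasone (Dex), set against those that received Dex alone. They were chosen by the treatment and genotype in their labels, and number 12 of the 35 libraries analysed. All cells came from C57BL/6 mice, either wild-type (WT) or labelled AMPKα1-/-, that is, without the catalytic α1 subunit of the AMP-activated kinase. Bone marrow was grown into macrophages in medium conditioned by L929 cells, a source of the growth factor CSF1, and was then treated for 24 h. The main comparison rests on 4 groups of 3 libraries: WT Dex, WT DAMPs + Dex, AMPKα1-/- Dex and AMPKα1-/- DAMPs + Dex, with Dex at 100 nM in each of them and DAMPs at 1 µg/ml where given. Further groups served for contrast: vehicle (DMSO), DAMPs at 1 µg/ml without Dex, and LPS at 100 ng/ml with or without Dex, each in both genotypes. The origin of the DAMPs is not given in the sources used here. The study's methods count cultures from individual mice of mixed sex as replicates, and the labels do not state which mouse a culture came from.

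DAMPs is the usual abbreviation for damage-associated molecular patterns, molecules of injured cells that macrophages sense through receptors also used for microbial products. Dex is a synthetic glucocorticoid. It binds the glucocorticoid receptor, which raises a set of target genes and holds down many cytokine genes that NF-κB and AP-1 drive. Acute-phase proteins are plasma or secreted proteins made in quantity during inflammation, mainly by the liver but some also by macrophages, and glucocorticoids are known to act together with cytokines on several of their genes. Values are FPKM, fragments normalised for gene length and library size, so levels of different genes are given per length.

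The 12 libraries held an estimated 15837203 to 31955298 fragments, from the FPKM that 1 fragment gives at the exon length of a gene. With these estimates 55.1 to 62.1% of low values came to whole fragments, so the totals are approximate. Of 47069 gene identifiers, 11130 had a mean of at least 1 FPKM over these libraries and were tested. Replicates of a group correlated across genes at 0.992 to 0.996 (Pearson r of log2(FPKM + 1)), and no gene above 0 had the same value in a pair of replicates. The gene of the deleted kinase, Prkaa1, was measured first. It stood at 26.1, 23.2 and 19.1 FPKM in the WT Dex libraries and at 20.9, 12.5 and 19.5 FPKM with DAMPs + Dex. The libraries labelled AMPKα1-/- had 21.5, 14.03 and 20.4 FPKM with Dex and 21.8, 20.0 and 24.0 FPKM with DAMPs + Dex. The genotypes overlapped, so the level of this transcript, summed over all exons, does not tell them apart, and the genotype is given as labelled throughout. Prkaa2, the gene of the other catalytic subunit, was at or below 0.063 FPKM in each library.

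As a check of the cell type, macrophage markers were summed. The 11 genes came to 20157, 27340 and 37812 FPKM (lowest, median, highest) in the 6 Dex libraries and to 25009, 30725 and 32482 FPKM in the 6 DAMPs + Dex libraries, with Lyz2, the lysozyme of myeloid cells, the most abundant. None of these markers passed the test. Mast cell and erythroid markers summed to at most 0.382 and 0.175 FPKM, with Fcer1a and Hba-a1 at 0 in all 12 libraries. Fibroblast markers, with Col1a2 the most abundant, differed between genotypes. They summed to 9.42 to 24.7 FPKM in the WT libraries and to 1.997 to 4.52 FPKM in those labelled AMPKα1-/-. Between treatments they overlapped, with medians of 8.21 FPKM with Dex and 6.90 FPKM with DAMPs + Dex. Skeletal muscle markers summed to a median of 6.63 FPKM with Dex and 6.75 FPKM with DAMPs + Dex, with Tnni2 the most abundant, while the muscle genes Ckm, Myh1, Myh2, Myh4 and Mb were at 0 in all 12 libraries. Neutrophil markers came to 46.7, 74.2 and 107 FPKM with Dex and 46.4, 84.97 and 150.3 FPKM with DAMPs + Dex. The collagenase gene Mmp8 and the receptor gene Csf3r made up most of this sum, while the granule genes Elane and Mpo were at most 0.153 and 0.218 FPKM.

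Few genes passed the test for a change with DAMPs under Dex, and the largest change was that of Saa3. In the comparison of 6 DAMPs + Dex with 6 Dex libraries, with genotype as a term, 64 of 11130 genes passed the test (0.575%; limma, Benjamini-Hochberg adjusted p under 0.05). Of these, 50 were higher (0.449%) and 14 lower (0.126%) with DAMPs + Dex, and the median change of all genes tested was -0.02 on the log2 scale. The change exceeded log2 1 for 18 of the higher and 2 of the lower genes. All 64 had the same sign in each genotype. In 43 of them the 6 libraries of one treatment lay wholly apart from the 6 of the other, 33 of them higher and 10 lower, a separation seen in 85 of all genes tested (0.764%), with 0.539% higher and 0.225% lower. Susd2 and Tmem63c had a mean under 1 FPKM with Dex, and Cd28 with DAMPs + Dex, so these passed the minimum through the treatment in which they were high. Without WT DAMPs + Dex replicate 3, WT Dex replicate 3 or AMPKα1-/- Dex replicate 3, the higher genes numbered 31, 30 and 30 and the lower genes 3, 3 and 4. The lower genes also numbered 5 to 7 when WT DAMPs + Dex replicate 1, WT Dex replicate 1 or 2, AMPKα1-/- DAMPs + Dex replicate 1 or 3, or AMPKα1-/- Dex replicate 1 was left out.

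Saa3 encodes a serum amyloid A protein, the form that macrophages make themselves. It was 683, 325 and 1546 FPKM in the WT Dex libraries and 7027, 12368 and 18467 FPKM with DAMPs + Dex. In the libraries labelled AMPKα1-/- it rose from 1029, 1149 and 727 FPKM to 8164, 6586 and 9870 FPKM. The lowest DAMPs + Dex library was thus above the highest Dex library, and the ratio of means was 11.4. The fitted change was 3.58 ± 0.35 on the log2(FPKM + 1) scale (SE, n = 6 libraries a treatment, limma adjusted p = 0.000402). As a share of all FPKM, Saa3 went from 0.127% ± 0.059 (SD, n = 6) with Dex to 1.44% ± 0.641 with DAMPs + Dex. This difference of 1.31 percentage points had an exact permutation p of 0.00216 (2-sided), the smallest that 924 arrangements of 6 against 6 can give. The gene lies on chromosome 7 (GRCm38, 46711998 to 46715700, minus strand). Its near relatives Saa1 and Saa2 could share reads with it. They reached at most 0.207 and 0.173 FPKM with Dex and 1.15 and 0.359 FPKM with DAMPs + Dex, below the minimum for testing.

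The promoters of the 3 acute-phase genes with the largest changes are printed here because NF-κB and C/EBP are the factors known to act on this gene class. Each run is the 250 bases before the RefSeq start of the gene (GRCm38.p6, minus strand, 5′ to 3′), at chr7:46715677-46715926 for Saa3, chr2:32387740-32387989 for Lcn2 and chr17:57228137-57228386 for C3. Capitals mark matches, on either strand, to the NF-κB motif (GGG and CC with any 5 bases between) or to the C/EBP letters TTNNGNAA.
Saa3: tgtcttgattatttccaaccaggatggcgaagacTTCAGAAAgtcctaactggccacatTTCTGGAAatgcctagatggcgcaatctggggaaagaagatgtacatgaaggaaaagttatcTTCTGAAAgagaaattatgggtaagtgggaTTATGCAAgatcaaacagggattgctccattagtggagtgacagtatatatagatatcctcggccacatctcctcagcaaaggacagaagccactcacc
Lcn2: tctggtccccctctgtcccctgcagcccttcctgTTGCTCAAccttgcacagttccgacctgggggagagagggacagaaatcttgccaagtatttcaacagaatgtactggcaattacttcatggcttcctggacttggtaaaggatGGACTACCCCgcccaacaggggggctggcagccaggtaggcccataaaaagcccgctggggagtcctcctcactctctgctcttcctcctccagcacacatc
C3: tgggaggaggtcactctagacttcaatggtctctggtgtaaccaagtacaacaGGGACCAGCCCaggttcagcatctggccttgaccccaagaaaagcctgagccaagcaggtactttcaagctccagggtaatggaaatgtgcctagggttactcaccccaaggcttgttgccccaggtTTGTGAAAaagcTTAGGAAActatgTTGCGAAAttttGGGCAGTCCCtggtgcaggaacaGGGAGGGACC
The Saa3 window held 4 C/EBP matches and no NF-κB match. The Lcn2 window held 1 of each, and that of C3 held 3 C/EBP and 4 NF-κB matches, 2 of which overlap on opposite strands. Among the 9 acute-phase genes tested, 7 had a window in the RefSeq table, and Cp had 2, which makes 8 windows. In windows of 250 bases before to 50 bases after the start, 7 of these 8 windows held the C/EBP letters and 4 the NF-κB letters, against 40.7% and 50.8% of all 32851 promoter windows. The glucocorticoid receptor hexamer TGTTCT was found in 2 of the 8, against 19.0% of all windows. A match describes letters in the window and is not evidence of binding.

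**Figure D1:**
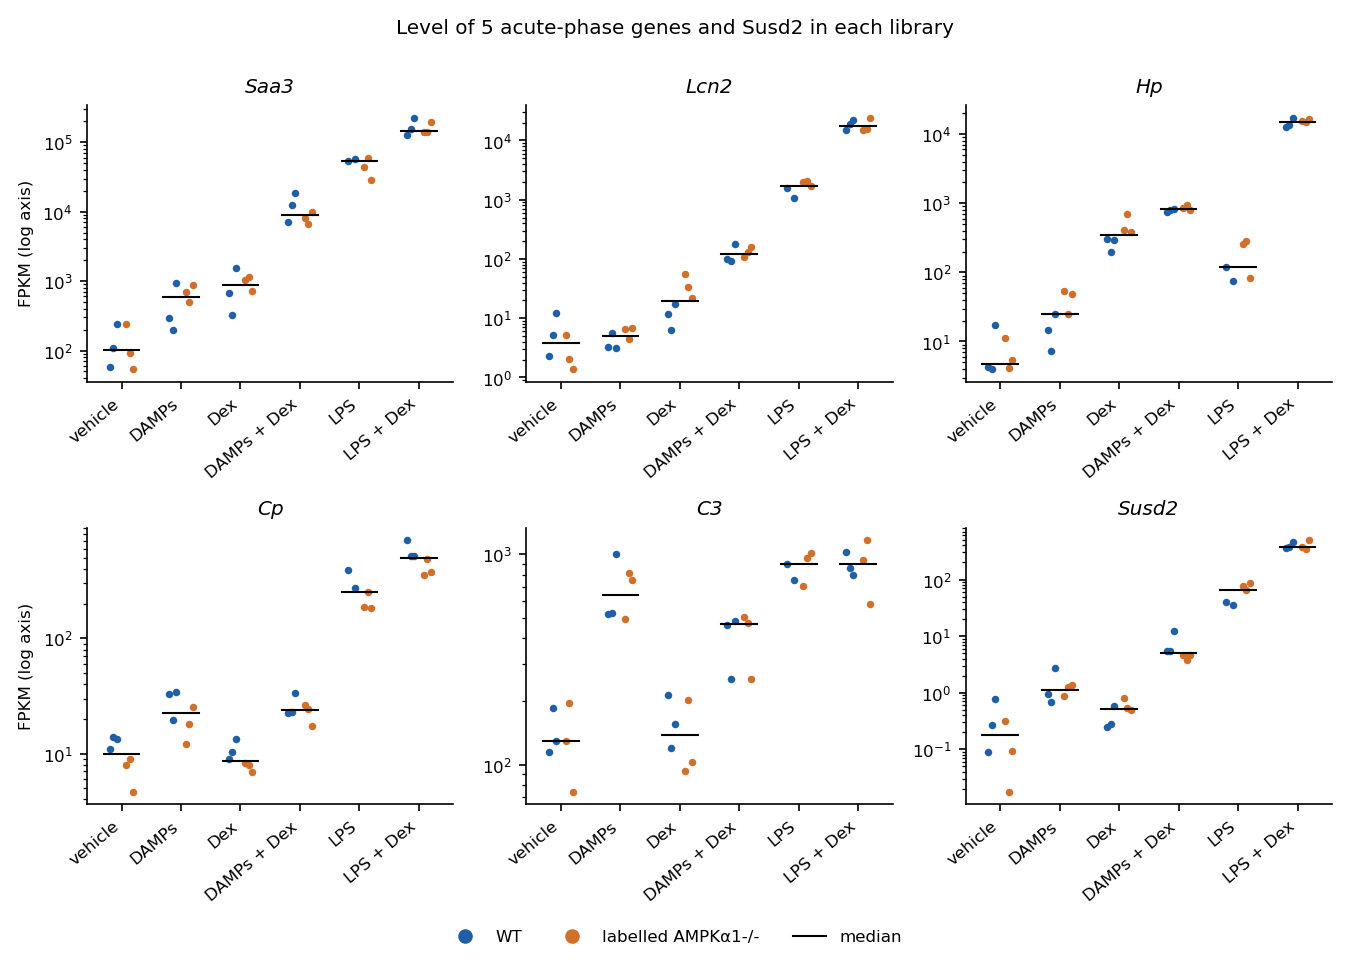
FPKM (log axis) of Saa3, Lcn2, Hp, Cp, C3 and Susd2 in every library of the 6 treatments. Each point is 1 library, blue for WT and orange for those labelled AMPKα1-/-, and the black line is the median of a treatment. For each of these genes the 6 DAMPs + Dex points lie above the 6 Dex points, while the LPS + Dex medians are higher still (147006 FPKM for Saa3).

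Other acute-phase genes rose with it. Lcn2, which encodes lipocalin 2, a protein that binds bacterial iron carriers, was 11.9, 6.35 and 17.7 FPKM with Dex in WT and 99.0, 93.3 and 182 FPKM with DAMPs + Dex. In the other genotype it was 55.2, 33.9 and 22.1 FPKM with Dex and 110, 132 and 157 FPKM with DAMPs + Dex. The treatments did not overlap, although Dex libraries labelled AMPKα1-/- were above those of WT. Its change was 2.60 ± 0.32 (log2, SE, limma adjusted p = 0.00191).

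Hp encodes haptoglobin, the plasma protein that captures free haemoglobin. It was 197, 348 and 707 FPKM (lowest, median, highest) with Dex and 753, 820 and 945 FPKM with DAMPs + Dex, and changed by 1.21 ± 0.18 (limma adjusted p = 0.00748). Cp, the gene of the copper ferroxidase ceruloplasmin, was 6.88, 8.61 and 13.4 FPKM with Dex and 17.4, 23.7 and 33.6 FPKM with DAMPs + Dex, a change of 1.32 ± 0.14 (limma adjusted p = 0.00048). C3, the central component of complement, was 93.7, 138 and 214 FPKM with Dex and 256, 466 and 504 FPKM with DAMPs + Dex, a change of 1.46 ± 0.25 (limma adjusted p = 0.018). None of the 3 overlapped between treatments. The call of C3 was lost when WT DAMPs + Dex replicate 1 or 3, WT Dex replicate 2 or 3, AMPKα1-/- DAMPs + Dex replicate 2 or AMPKα1-/- Dex replicate 3 was left out, with adjusted p-values of up to 0.103 over the alternatives, and its change then remained above log2 1.

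Of the 30 genes on the acute-phase list, 9 reached the minimum, all 9 had a positive change, and these 5 were called. Over all genes tested 0.449% were called higher. The median of the 9 was 1.21, beside -0.02 for all genes tested. The others were Orm1 and Orm2, which encode orosomucoids, and the metallothionein genes Mt1 and Mt2. Orm1 was 1.46, 2.67 and 5.17 FPKM with Dex and 3.27, 5.87 and 8.23 FPKM with DAMPs + Dex, with a change of 0.80 ± 0.22 that did not pass (limma adjusted p = 0.198). The changes of Mt2, Mt1 and Orm2 were 0.55, 0.27 and 0.25. Classical liver genes of this class, such as Crp and the fibrinogen genes, were below the minimum. Lcn2 and Hp are also made by neutrophils. Beside these rises, the sum of the neutrophil markers overlapped between treatments, and of the 12 markers 3 reached the minimum and none passed. Mmp8, the most abundant, was 17.6 to 71.9 FPKM with Dex and 22.7 to 118 FPKM with DAMPs + Dex, a change of 0.49 ± 0.20 (limma adjusted p = 0.536), and the granule gene Ngp had a change of -0.78 ± 0.25 (limma adjusted p = 0.320). The part of these cells in the result was not tested. In these bulk libraries more RNA per cell cannot be told apart from more cells of a kind.

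Other called genes are given singly. Over all genes tested 0.575% were called. Of 21 inflammatory effector genes Marco and Mmp14 were called, both higher (median of the list 0.09), and of 8 chemoattractant receptor genes Fpr2 was called higher and Cxcr4 lower (median -0.09). Susd2, a membrane protein with a sushi domain, was between 0.245 and 0.820 FPKM with Dex and between 3.86 and 12.5 FPKM with DAMPs + Dex. It changed by 2.17 ± 0.21 (limma adjusted p = 0.000396); the highest value, 12.5, was that of WT DAMPs + Dex replicate 3. Marco, a scavenger receptor for bacteria and particles, was 10.1 to 72.0 FPKM with Dex and 60.1 to 253 FPKM with DAMPs + Dex, and changed by 2.02 ± 0.22 (limma adjusted p = 0.000667). Here the treatments overlapped across genotypes, since WT DAMPs + Dex replicate 2 (60.1 FPKM) lay below AMPKα1-/- Dex replicate 2 (72.0 FPKM), but not within either genotype. Fpr2, a receptor for formylated peptides and for serum amyloid A, was 2.46, 6.99 and 14.1 FPKM with Dex and 10.4, 15.8 and 30.7 FPKM with DAMPs + Dex, a change of 1.21 ± 0.16 (limma adjusted p = 0.00326). The treatments overlapped for Fpr2. Without the genotype term the calls of Fpr2 and Marco were lost (limma adjusted p = 0.430 and 0.125). Its neighbour Fpr1 had a change of 0.89 ± 0.19 and did not pass (limma adjusted p = 0.0631).

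Siglece, a sialic acid receptor that inhibits myeloid cells, was 3.14 to 10.02 FPKM with Dex and 11.9 to 22.3 FPKM with DAMPs + Dex. Cd55, which protects cells from complement, was 18.3 to 26.5 FPKM and 30.2 to 56.7 FPKM. Neither gene overlapped between treatments, and the changes were 1.23 ± 0.13 and 0.92 ± 0.08 (limma adjusted p = 0.000632 and 0.000196). Fgr, a Src-family kinase of myeloid cells, went from 5.70 to 10.97 FPKM with Dex to 17.2 to 38.5 FPKM with DAMPs + Dex, with a change of 1.44 ± 0.16. The adaptor Sla and the kinase Ikbke, which acts in antiviral signalling, also rose, by 0.44 and 0.52. Mmp14, a membrane-bound metalloproteinase, changed by 1.00 ± 0.20 (limma adjusted p = 0.0433), and its call was lost in 16 of 23 alternatives. Of the other rises without overlap, Tmem176a and Lgals3bp changed by 1.01 ± 0.12 and 0.90 ± 0.13. Sla, Ikbke, Tmem176a and Lgals3bp were chosen after their values were seen.

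**Figure D2:**
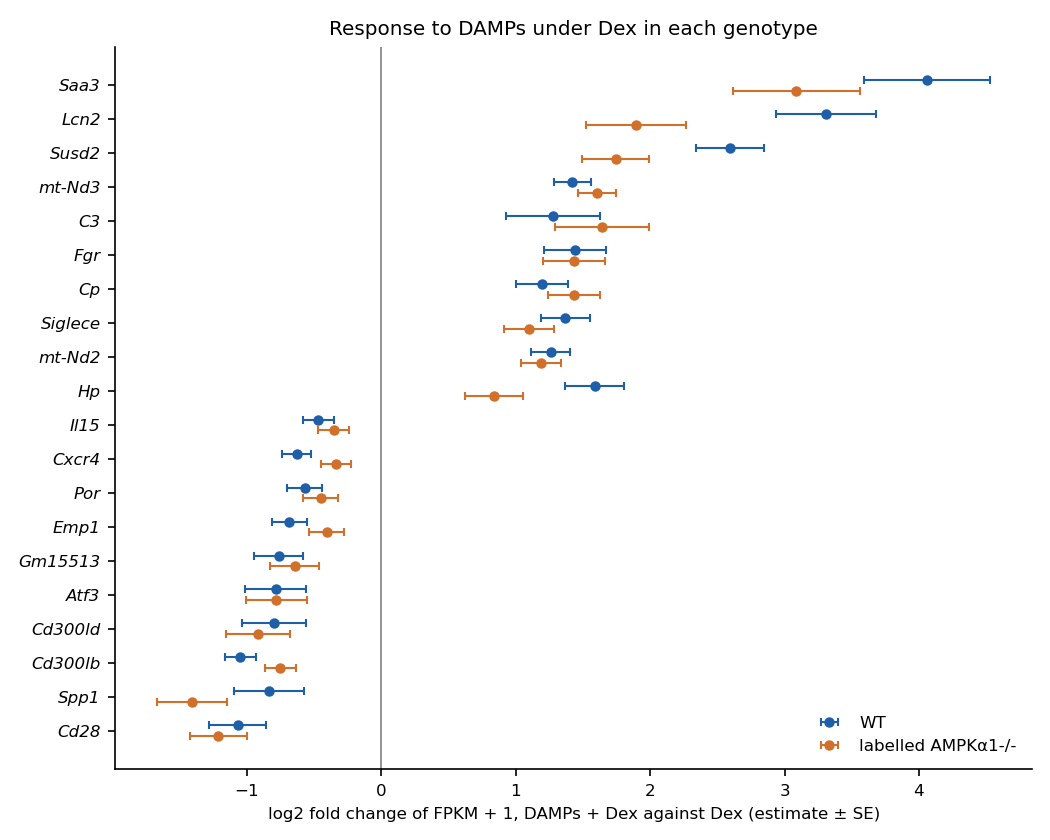
Log2 fold change of FPKM + 1 for DAMPs + Dex against Dex (x axis) of the 10 largest rises and 10 largest falls without overlap between treatments, fitted in each genotype. Points are estimates and bars are SE, with n = 3 libraries a group. The estimates of both genotypes lie on the same side of 0 for each of the 20 genes, from 4.06 for Saa3 in WT to -1.41 for Spp1 in libraries labelled AMPKα1-/-.

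The genes that fell were fewer and changed less. Spp1, which encodes the secreted phosphoprotein osteopontin, was 351, 491 and 695 FPKM with Dex and 142, 245 and 291 FPKM with DAMPs + Dex. Its change was -1.12 ± 0.20 (limma adjusted p = 0.0229). Cd28, best known as a T-cell costimulatory receptor, was 1.58, 2.57 and 5.75 FPKM with Dex and 0.306, 0.742 and 1.51 FPKM with DAMPs + Dex, a change of -1.14 ± 0.15 (limma adjusted p = 0.0021). T-cell markers summed to 7.99 FPKM with Dex and 6.99 FPKM with DAMPs + Dex (medians). Most of that was Cd4, and Trbc2, a constant segment of the T-cell receptor, was at 0 in all 12 libraries.

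Cd300lb and Cd300ld belong to a family of myeloid immunoglobulin receptors whose similar members can share reads, so their values are uncertain to that extent. Cd300lb was 70.7, 86.2 and 103 FPKM with Dex and 35.3, 45.5 and 60.7 FPKM with DAMPs + Dex, a change of -0.90 ± 0.09 (limma adjusted p = 0.000441). Cd300ld was 6.07 to 9.69 FPKM and 2.49 to 6.06 FPKM, so that the treatments nearly touched. Atf3, a stress-induced transcription factor that restrains inflammatory genes, was 56.7 to 92.4 FPKM and 24.1 to 52.2 FPKM. Cxcr4, the receptor of the chemokine CXCL12, was 310 to 395 FPKM and 197 to 287 FPKM, a change of -0.48 ± 0.09. The cytokine gene Il15 was 9.08 to 11.1 FPKM and 6.25 to 8.33 FPKM, a change of -0.41 ± 0.08. Emp1, Por, which supplies electrons to cytochromes P450, and the uncharacterised Gm15513 completed the 10 falls without overlap, with changes of -0.54, -0.51 and -0.70. Among these 10 genes the call of Cd300lb held in all 23 alternatives and that of Cd28 in 21 of 22, whereas the call was lost in 21 of 23 for Atf3, 17 for Il15, 16 for Cd300ld, 13 for Cxcr4, 12 for Emp1, 11 for Por, 11 for Gm15513 and 8 for Spp1.

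**Figure D3:**
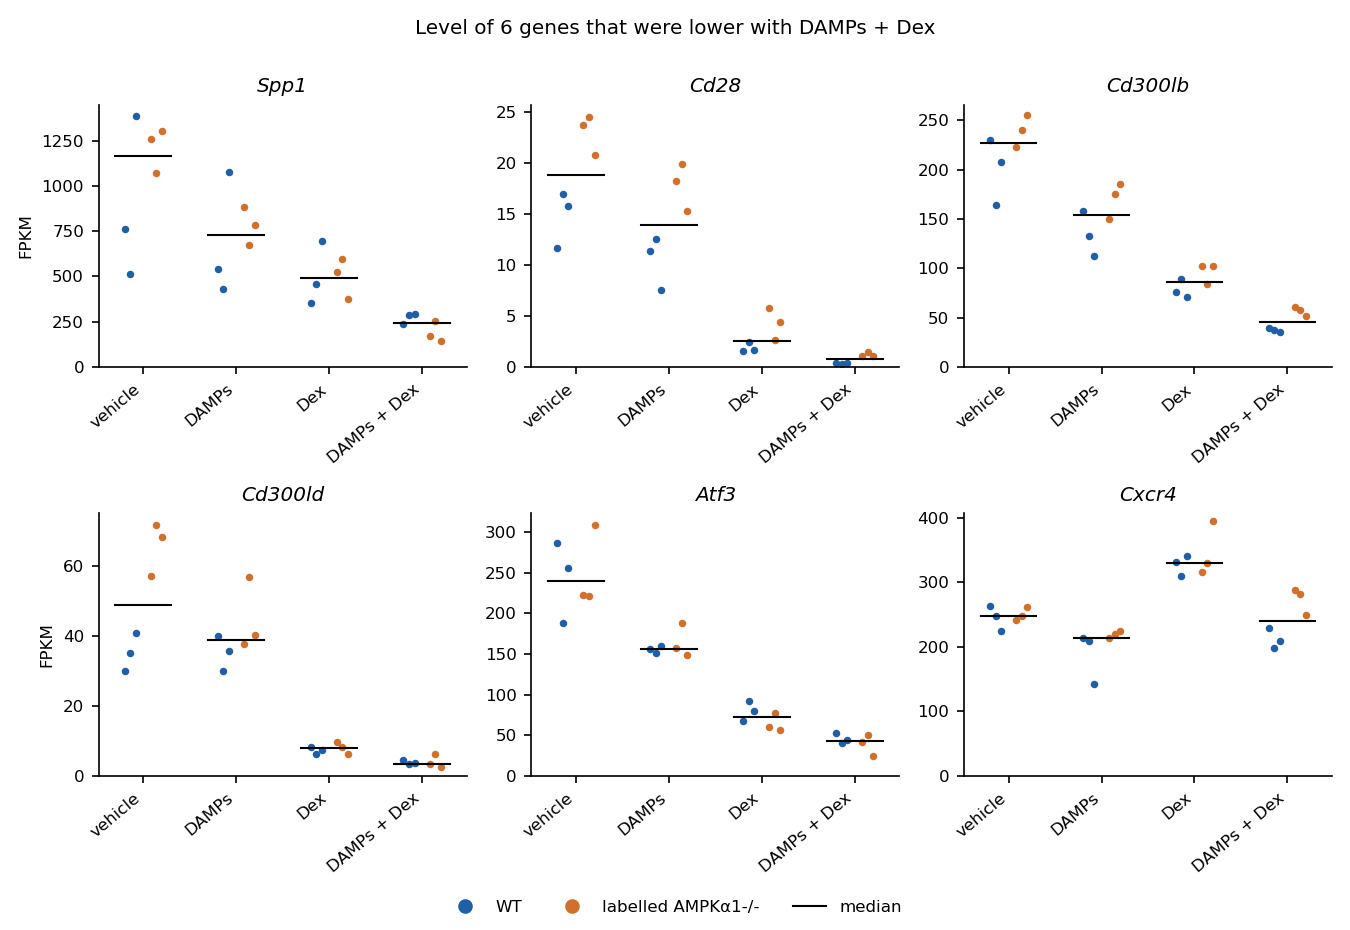
FPKM of Spp1, Cd28, Cd300lb, Cd300ld, Atf3 and Cxcr4 in each library with vehicle, DAMPs, Dex and DAMPs + Dex (linear axes from 0), with points and median lines drawn as in the plot of acute-phase genes. The DAMPs + Dex points lie below the Dex points for all 6 genes. The vehicle medians are the highest of the 4 treatments except for Cxcr4, which is highest with Dex (median 330 FPKM).

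Of the transcripts of the mitochondrial genome, 6 rose, where 0.449% of all genes tested were called higher. The mitochondrial DNA encodes 13 proteins of the respiratory chain and of ATP synthase. Of these genes, 12 reached the minimum, all 12 had a positive change with a median of 0.68, and the other 6 did not pass. mt-Nd3, a complex I subunit, was 6.98, 7.98 and 9.12 FPKM with Dex and 19.7, 25.2 and 29.8 FPKM with DAMPs + Dex. It changed by 1.51 ± 0.10 and had the smallest adjusted p of all genes tested (limma, 1.57e-05). mt-Nd2, of the same complex, was 528, 604 and 793 FPKM with Dex and 1343, 1402 and 1658 FPKM with DAMPs + Dex, a change of 1.22 ± 0.10. mt-Nd1 was 923, 1142 and 1494 FPKM and 2018, 2185 and 2471 FPKM, a change of 0.96 ± 0.10. The treatments lay apart for all 3 of these genes.

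The complex III gene mt-Cytb changed by 0.74 ± 0.12, and the complex IV genes mt-Co3 and mt-Co2 by 0.78 ± 0.10 and 0.63 ± 0.12. Of these, mt-Cytb overlapped between treatments. The 6 genes that did not pass, from mt-Atp6 at 0.47 to mt-Co1 at 0.72, had SE of 0.11 to 0.27. In all, mitochondrially encoded genes made up 1.35% ± 0.184 of the FPKM sum with Dex and 2.09% ± 0.368 with DAMPs + Dex (SD, n = 6). Of 17 TCA cycle genes, which are nuclear, 16 had a positive change, with a median of 0.08, and none was called. Copies of mitochondrial sequence in the nuclear genome can take or remove reads from these genes, so their levels relative to each other are uncertain.

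**Figure D4:**
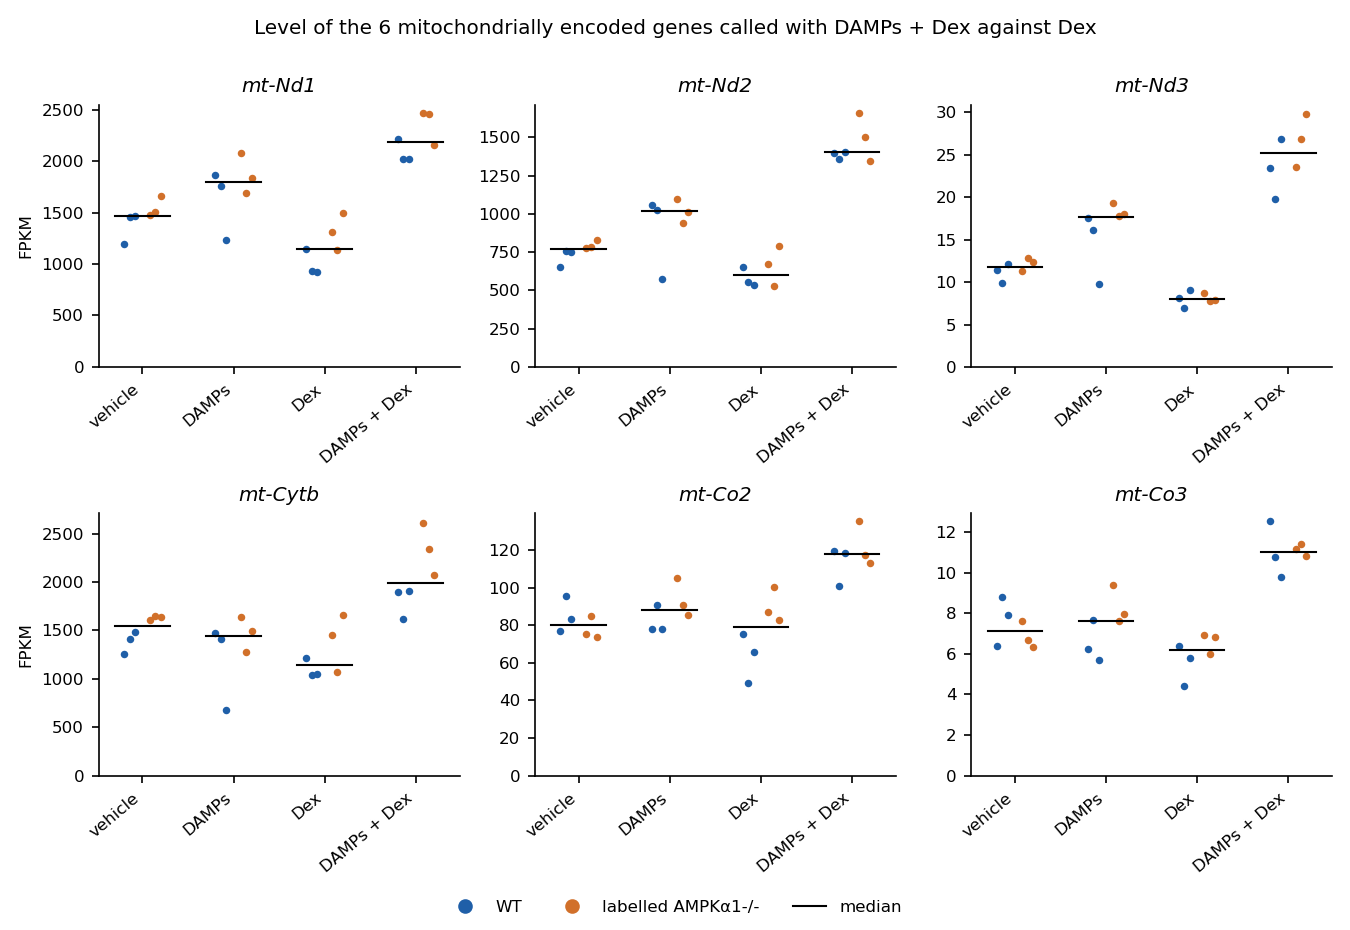
FPKM of mt-Nd1, mt-Nd2, mt-Nd3, mt-Cytb, mt-Co2 and mt-Co3 in each library with vehicle, DAMPs, Dex and DAMPs + Dex (linear axes from 0), with points and median lines drawn as in the plot of acute-phase genes. The DAMPs + Dex median is the highest of the 4 treatments in each panel. WT DAMPs replicate 3 is the lowest DAMPs library in each of the 6 panels.

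In the lists that follow, the counts of calls are to be read against the share of 0.575% over all genes. Tnf, Il6 and Il1b, the leading inflammatory cytokines, were below the minimum, with highest values of 0.726, 0.170 and 1.56 FPKM in the 12 libraries. Of 8 cytokine genes tested, Il15 was the 1 that was called, and it fell. Among 24 Toll-like receptors and adaptors and 18 NF-κB subunits and inhibitors none passed, and the medians were 0.01 and 0.06. The inhibitor gene Nfkbia was 67.7, 77.7 and 87.6 FPKM with Dex and 87.4, 102 and 112 FPKM with DAMPs + Dex, with a change of 0.38 ± 0.10 (limma adjusted p = 0.138). Tlr2, a receptor for lipoproteins, had a change of 0.26 ± 0.07 (limma adjusted p = 0.175). None of 13 chemokine genes was called. Ccl3 and Ccl4 had changes of -0.70 and -0.59, and Ccl17 one of 0.95.

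Alarmins, the proteins that cells release on damage, were measured as transcripts, and none of 9 was called (median -0.06). S100a8 and S100a9, which form calprotectin, had changes of -0.10 ± 0.33 and -0.77 ± 0.31. Interferon-stimulated genes had a median change of 0.10 over 24 tested and no call. The largest changes here among genes at an unadjusted p under 0.05 were 0.32 for Ifi47 and 0.31 for Irgm1. Of 19 glucocorticoid-induced genes none was called. Tsc22d3, which encodes the Dex-induced leucine zipper protein GILZ, was 667 to 899 FPKM with Dex and 788 to 1071 FPKM with DAMPs + Dex, against 48.3 to 54.6 FPKM with vehicle. Fkbp5 was 297 to 356 FPKM and 364 to 431 FPKM, with a change of 0.27 ± 0.08 (limma adjusted p = 0.218).

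Of 14 targets of NRF2, the regulator of antioxidant genes, 13 had a negative change with a median of -0.31, and Osgin1 was called lower (-0.44 ± 0.08). Nqo1 and Gclm had changes of -0.65 ± 0.16 and -0.57 ± 0.14 and did not pass (limma adjusted p = 0.130 for both). Of 20 genes of cholesterol and lipid handling, 18 had a negative change, with Cd36 at -0.90 ± 0.31 and Lpl at -0.77 ± 0.25, and none was called. Cell cycle genes had a negative change in 16 of 19 with a median of -0.18, and again none was called. Among 19 genes of glycolysis and HIF1 the median was 0.03, and Pfkfb3, which makes an activator of glycolysis, had the largest change (0.93 ± 0.25, limma adjusted p = 0.191). Besides C3 and Cd55, no other of the 10 complement genes passed, and class II presentation and costimulation had a median of 0.56 over 9 genes without a call.

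The response was also fitted in each genotype. In WT, 33 genes were called (0.296%), 27 higher (0.243%) and 6 lower (0.0539%), and in libraries labelled AMPKα1-/- 9 genes (0.0809%), 8 higher (0.0719%) and 1 lower (0.00898%). The difference of the response between genotypes was tested as such, and no gene passed (limma, smallest adjusted p 0.134). At an unadjusted p under 0.05, 3133 genes differed (28.1%), and among the 64 called genes 3 did. The response itself met that threshold (limma) for 2786 genes in WT (25.0%) and 956 in libraries labelled AMPKα1-/- (8.59%). In the main comparison, which fits 1 response for both genotypes, 824 genes did (7.40%). Lcn2 changed by 3.31 in WT and by 1.90 in the other genotype, a difference of -1.41 (limma adjusted p = 0.136). For Saa3 the values were 4.06 and 3.09, a difference of -0.97 (limma adjusted p = 0.342), and for Hp 1.59 and 0.84. mt-Nd3 and Fgr changed by almost the same amount in both, 1.42 and 1.60 for the former and 1.44 and 1.43 for the latter. The genes with the smallest p for this difference, Gm17132, Ubtd2 and Mpst, were not called in the main comparison.

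Library totals differed along the same lines. The FPKM sums of the 3 WT Dex libraries were 647329 to 689281, below those of the 9 other libraries (702956 to 777210). On the first principal component, with 44.8% of the variance, WT Dex replicate 2 and AMPKα1-/- Dex replicate 2 formed the ends, at -39.2 and 40.8. The median change of all genes was -0.07 in WT and 0.04 in the other genotype. Without both of these libraries, 820 genes in place of 3133 had an unadjusted p under 0.05 for the genotype difference. The part of these totals in the genotype values was not tested further. Leaving out 1 library moved the WT count to 13 (WT Dex replicate 2), 14 (WT DAMPs + Dex replicate 2), 15 (WT Dex replicate 1), 19 (WT DAMPs + Dex replicate 1), 21 (AMPKα1-/- Dex replicate 1) or 70 (WT DAMPs + Dex replicate 3). In the same way it moved the count of the other genotype to 2 (AMPKα1-/- DAMPs + Dex replicate 1 or 2, or Dex replicate 1), 3 (AMPKα1-/- Dex replicate 3), 4 (AMPKα1-/- DAMPs + Dex replicate 3 or WT Dex replicate 1) or 17 (WT DAMPs + Dex replicate 2), and without WT DAMPs + Dex replicate 3 the genotype difference was called for 1 gene.

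To see what Dex had changed in the response to DAMPs, DAMPs was compared with vehicle in 12 other libraries. That comparison called 988 of 11249 genes (8.78%), 412 higher (3.66%) and 576 lower (5.12%). Among the 64 genes called under Dex, 30 were called in the same direction here, 26 higher and 4 lower. These are 46.9% of the 64 and 3.04% of the 988, and no gene was called in opposite directions. Of the higher genes 42 were tested in both comparisons, and 41 had a positive change without Dex too. Marco and C3 changed by 2.78 and 2.32 without Dex and by 2.02 and 1.46 with it, and the test of the difference did not pass for either (limma adjusted p = 0.287 and 0.381). Saa3 was 54.0 to 241 FPKM with vehicle and 200 to 931 FPKM with DAMPs, a change of 2.18 (limma adjusted p = 0.0115), and the difference between this and its change under Dex was 1.39 ± 0.62 (limma adjusted p = 0.376).

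The difference of the DAMPs response with and without Dex was tested over 24 libraries and called 202 of 11278 genes (1.79%), 100 in which the change was more positive with Dex (0.887%) and 102 in which it was more negative (0.904%). Lcn2 was the acute-phase gene among them: with vehicle it was 1.38 to 12.4 FPKM and with DAMPs 3.19 to 6.73 FPKM, and the difference was 2.33 ± 0.45 (limma adjusted p = 0.0121). Fgr had a difference of 0.92 ± 0.21. That of Susd2 was 1.32 ± 0.28, but without Dex Susd2 was low (medians 0.182 FPKM with vehicle and 1.11 FPKM with DAMPs) and below the minimum for testing. The log2(FPKM + 1) scale compresses changes at such levels, so this value does not show that the response of Susd2 differed. Of the 12 mitochondrially encoded genes 8 were called more positive with Dex, against 0.887% of all genes, led by mt-Nd3 (1.08 ± 0.16, limma adjusted p = 0.00389). The chromatin proteins Hmgn2 and Hmgn1 and the linker histone gene H1f0 had the smallest p-values, with differences of 0.82, 0.68 and 0.66. Hmgn2 and Hmgn1 were lower with DAMPs than with vehicle (-0.48 and -0.55) and were not called under Dex (0.34 and 0.13), whereas H1f0 was called with Dex (0.68 ± 0.08) and had a change of 0.02 without it. Il15 had a positive change without Dex (0.28) and a negative one with it, a difference of -0.69 ± 0.12 (limma adjusted p = 0.00931). Left out singly, 6 libraries moved this count by more than 1.5 times: it was 361 without WT DAMPs replicate 2, 134 without WT DAMPs + Dex replicate 2, 117 without WT Dex replicate 1, and 115, 121 and 128 without AMPKα1-/- DAMPs replicate 3, Dex replicate 1 and DAMPs + Dex replicate 1.

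Interferon-stimulated genes stood at the other end. Of the 29 tested, 26 were called higher with DAMPs than with vehicle (median 1.73), against 3.66% of all genes. For 19 the response was called more negative with Dex, against 0.904% of all genes. WT DAMPs replicate 3 stood apart from the other WT DAMPs libraries on these genes, with 1586 FPKM of Irf7 against 478 and 368 FPKM and 2407 FPKM of Bst2 against 734 and 635 FPKM. Without it, 27 were called higher with DAMPs (median 1.54) and 23 were called more negative with Dex. For the mitochondrially encoded genes, on which the same library was low, 7 in place of 8 were then called more positive with Dex. Irf7, the interferon-induced regulator of type I interferon genes, had a change of 3.32 without Dex and 0.17 with it, a difference of -3.15 ± 0.48 (limma adjusted p = 0.00492). It stood at 821 FPKM with DAMPs, 89.3 with vehicle, 35.2 with Dex and 46.9 FPKM with DAMPs + Dex (medians). Bst2, or tetherin, and the oligoadenylate synthetase-like gene Oasl2 differed by -1.80 ± 0.33 and -2.29 ± 0.42. Of 19 cell cycle genes, 16 were called lower with DAMPs alone (median -1.02), against 5.12% of all genes. Without WT DAMPs replicate 3 the count was 13 (median -0.96). Pcna, the sliding clamp of DNA replication, was 376 to 549 FPKM with vehicle and 153 to 257 FPKM with DAMPs. Under Dex it was 105 to 128 FPKM without and 94.5 to 108 FPKM with DAMPs, and its response differed by 0.93 ± 0.15. Irf7, Bst2, Oasl2 and Pcna were chosen after their values were seen.

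**Figure D5:**
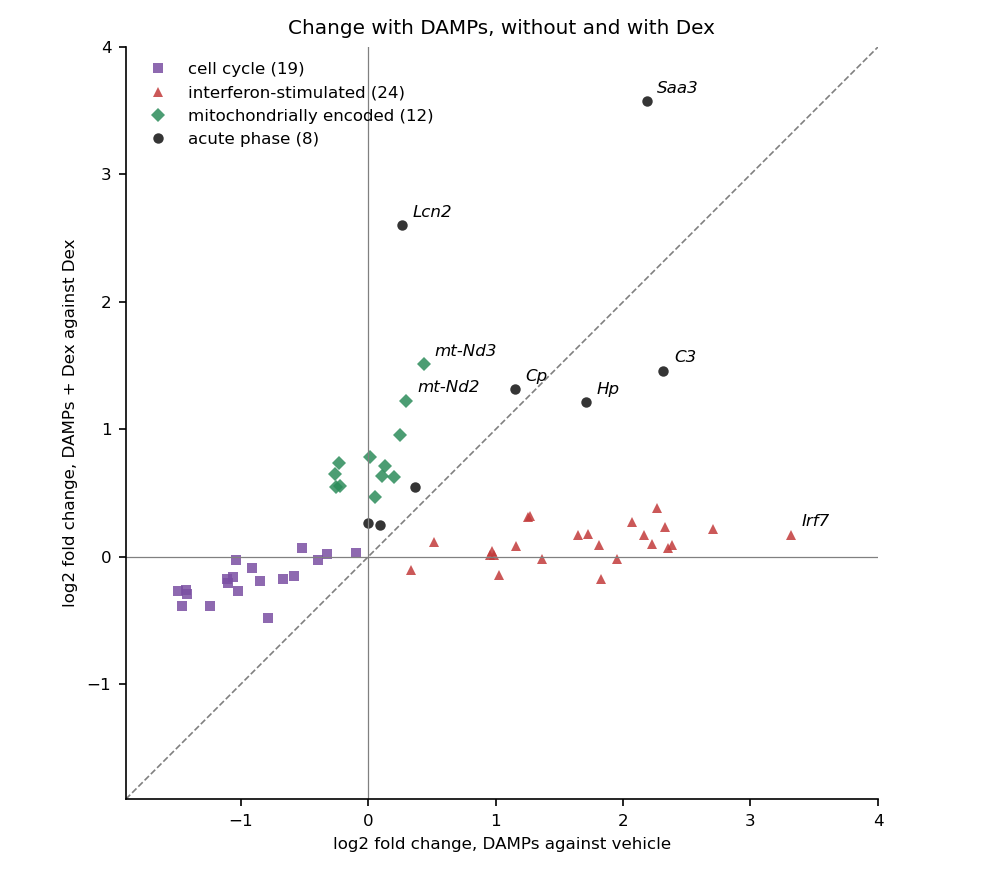
Log2 fold change of FPKM + 1 for DAMPs against vehicle (x axis) and for DAMPs + Dex against Dex (y axis), from separate sets of 12 libraries. Each point is 1 gene of 4 lists, named with their number in the key, and the dashed line marks equal change. Interferon-stimulated genes (24 tested in both) lie along the x axis, mitochondrially encoded genes and Lcn2 above the dashed line, and Saa3 in the upper right.

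LPS given with Dex is the other stimulus under Dex in this series, and it moved far more of the transcriptome. DAMPs + Dex and LPS + Dex libraries differed in 7673 of 11178 genes (68.6%; limma), 47.2% higher and 21.4% lower with DAMPs + Dex. Saa3 alone made up 16.0015 to 23.9709% of the FPKM sum with LPS + Dex, against 0.903 to 2.63% with DAMPs + Dex. FPKM are relative to library size, so this can lower other genes with LPS + Dex. Sums without Saa3 overlapped, at 661203 to 714637 FPKM with LPS + Dex and 684489 to 748996 FPKM with DAMPs + Dex. The split by direction, medians and small differences in comparisons with LPS + Dex are uncertain to that extent. On the log2 scale, DAMPs + Dex minus LPS + Dex was -4.04 for Saa3, -7.17 for Lcn2, -4.17 for Hp, -4.26 for Cp, -5.91 for Susd2 and -5.13 for Marco, while it was -1.17 for C3. Set against the same Dex libraries, which both comparisons share, LPS + Dex called 70.4% of genes (21.5% higher, 48.9% lower), with a median change of -0.29. LPS + Dex changed Saa3 by 7.61, Hp by 5.38 and C3 by 2.63, where DAMPs + Dex changed them by 3.58, 1.21 and 1.46. For mt-Nd3 the 2 values were 1.47 and 1.51, and for mt-Nd2 0.95 and 1.22. The direct difference, DAMPs + Dex minus LPS + Dex, was 0.04 for mt-Nd3 and did not pass (limma adjusted p = 0.716), which does not show that the stimuli act alike. That for mt-Nd2 was 0.27 and that for mt-Nd1 -0.36, and both passed (limma adjusted p = 0.0341 and 0.00401). The value of mt-Nd2 was close to the median of all genes in this comparison (0.28), while those of mt-Nd3 and mt-Nd1 lay below it. Spp1 was 0.06 with LPS + Dex and -1.12 with DAMPs + Dex, and the direct difference was -1.18 (limma adjusted p = 2.87e-05). Cd300lb and Cxcr4 were further below their Dex level with LPS + Dex, at -3.78 and -7.07. Il15 was higher with DAMPs + Dex than with LPS + Dex by 2.01.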

How the data were processed

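RNA was sequenced from BMDMs of 12 groups. The authors deposited 1 table per library with FPKM per Ensembl gene, normalised by them for gene length and fragments. Per the submitters' processing notes, tools and builds included Bowtie2 2.2.3, TopHat2 2.0.12, HTSeq 0.6.1, DESeq2, GRCm38 and mm10. Raw counts were not used here, and no count model was run. Fragment totals were estimated from FPKM and the exon lengths of genes. Symbols were found for 46488 of 47069 identifiers.

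FPKM were tested as log2(FPKM + 1), which understates changes of low genes, for genes with a mean of at least 1 FPKM. limma 3.58.1 in R 4.3.3 was used (trended empirical Bayes, 2-sided, Benjamini-Hochberg adjusted p under 0.05), with genotype as a term. The genotype difference and the difference with and without Dex were interaction terms. Of the libraries, WT LPS has 2 and every other group 3; WT LPS replicate 1 was not analysed here. P-values measure the spread between these cultures. The fit was tested on simulated data with known changes. Changes of log2 0.5, 1 and 2 were called in 50.7%, 92.5% and 98.5% of genes for the main comparison. For the genotype difference the shares were 4.48%, 52.2% and 92.4%, so a missing call there does not show an equal response. Noise was drawn independently for each gene, so spread shared by the genes of a library was not simulated. Python 3.11.15, numpy 2.4.6, pandas 2.3.3, scipy 1.17.1 and matplotlib 3.10.9 were used for the exact permutation test, promoter search and plots. Promoters came from RefSeq (GRCm38.p6).

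Named genes were those of the acute-phase and alarmin lists above the minimum; the 10 largest rises and falls called without overlap; up to 3 genes with the largest change at an unadjusted p under 0.05 in each other list (34 lists in all); the 3 with the smallest p for each interaction; Prkaa1, Prkaa2, Nr3c1, Tsc22d3, Fkbp5, Dusp1, Tnf, Il6 and Il1b; and the most abundant gene of each marker list. The comparison, its members and all lists were chosen with earlier results of these data known. Alternatives were another pseudocount (0.1), no filter or a minimum of 5 FPKM, other centring and scaling, no moderation or trend, a replicate block, no genotype term and leaving out each library. Leaving out both Dex replicates 2, and list counts without WT DAMPs replicate 3, were added after seeing the data.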

Additional observations from a re-analysis of the deposited data

Results flagged for a closer look

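The response to DAMPs differed with and without Dex, by a test of the difference itself (limma interaction over 24 libraries), for 202 genes, and each value below is the log2 change with Dex minus that without. Groups held at most 3 libraries, so single libraries were not tested as outliers.

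The difference was 2.33 for Lcn2, 0.92 for Fgr, 0.77 for the glucocorticoid target Fkbp5 and 0.47 for Plscr1. It was 1.32 for Susd2, 1.33 for Prss16, 1.07 for the chemokine gene Ccl17 and 0.72 for Atp8b3, but these 4 genes were too low to be tested without Dex: their medians with vehicle and DAMPs were 0.182 and 1.11 FPKM for Susd2, 0.393 and 0.394 FPKM for Prss16, 0.136 and 0.0339 FPKM for Ccl17 and 0.0191 and 0.0605 FPKM for Atp8b3. No tested change without Dex is given for them. The log2(FPKM + 1) scale compresses changes at such levels, so these 4 differences largely restate the change under Dex. They do not show that the response differed. Fkbp5 was tested without Dex but was low there too, at 1.60 to 3.34 FPKM with vehicle and 0.792 to 1.85 FPKM with DAMPs. Its difference rests mostly on that change (-0.49), since its change under Dex (0.27) was not called. The glycolytic enzyme gene Pfkl differed by 0.48. The values were 0.82 for Hmgn2, 0.68 for Hmgn1, 0.66 for H1f0, 0.67 for Hmgb2 and 0.37 for Hmgb1. Pcna differed by 0.93.

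The mitochondrially encoded genes mt-Nd3 (1.08), mt-Cytb (0.97), mt-Nd2 (0.92), mt-Nd4 (0.80), mt-Nd6 (0.78), mt-Co3 (0.76), mt-Nd1 (0.71) and mt-Co2 (0.53) were more positive with Dex. In contrast, the interferon-stimulated genes Irf7 (-3.15), Oasl2 (-2.29) and Bst2 (-1.80) and the cytokine gene Il15 (-0.69) were more negative. Without WT DAMPs replicate 3, an alternative chosen after seeing the data, all 27 named differences kept their sign and 24 their call, the exceptions being Ccl17, mt-Co2 and Plscr1.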

How the results depend on the processing

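For named genes, 1751 of 1919 repeated values kept direction and side of the threshold, 137 lost the call, 5 gained one and 26 changed sign, and list medians held in 584 of 586. Saa3, Lcn2, Cp, mt-Nd1, mt-Nd2, mt-Nd3, Fgr, Siglece, Cd300lb, Cd55 and H1f0 kept their call in all 23 alternatives. Counts moved more, and the cause was not tested. Genes lower numbered 3 without a filter, 7 with libraries centred, 9 with FPKM rescaled without Saa3, 4 without moderation, 5 without a genotype term and 6 without both Dex replicates 2, and genes higher numbered 28 without a genotype term. In WT, calls were 20 without a filter, 16 rescaled, 10 without moderation and 15 without both Dex replicates 2. In libraries labelled AMPKα1-/- they were 4 without a filter, 2 without moderation and 5 without trend. For the difference with and without Dex they were 132 with pseudocount 0.1, 94 without a filter, 109 without moderation and 98 without both Dex replicates 2.

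Leaving out 1 library gave 30 to 55 genes higher, 3 to 16 lower, 13 to 70 in WT, 2 to 17 in AMPKα1-/-, 0 to 1 for the genotype difference, 115 to 361 for the difference with and without Dex, 685 to 1087 for DAMPs against vehicle and 7329 to 7851 for DAMPs + Dex against LPS + Dex. The Saa3 share difference was 1.07 to 1.42 percentage points. Under the other alternatives the count for DAMPs + Dex against LPS + Dex moved further, to between 6010 and 9116. That for DAMPs against vehicle was then 674 to 1158.

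Replicate numbers are shared by the labels' groups. Deviations of same-numbered DAMPs + Dex and Dex libraries correlated at -0.224 to 0.606 (over 0.1 in 3 of 6 pairs) and those of DAMPs and vehicle libraries at -0.143 to 0.477 (4 of 6), not every sample correlating best with its own number, so the numbers were not taken as a pairing. With the replicate block, 37 genes were higher and 7 lower, with 31 called in WT, 19 in AMPKα1-/-, 0 for the genotype difference, 1158 for DAMPs against vehicle and 333 for the difference with and without Dex.

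Changes of sign were seen for uncalled genes near 0. Ubtd2 was -7.70e-05 after quantile normalisation, -0.0183 rescaled and -0.0519 without both Dex replicates 2, and -0.12 to 0.10 with 1 library left out. S100a10 was 0.0196 without both Dex replicates 2 and -0.15 to 0.0627 with 1 library left out. The same ranges were -0.38 to 0.11 for S100a8, -0.0546 to 0.12 for S100a11, -0.13 to 0.0159 for Anxa1, -0.18 to 0.0666 for Prkaa1, -0.20 to 0.11 for Cd4 and -0.16 to 0.0300 for Tnni2. Susd2 and Cd28, which are low, changed by 3.35 and -1.87 with pseudocount 0.1 in place of 2.17 and -1.14.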
